A study of Mus musculus with 6 samples.

Results

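The core autophagy genes examined here were Ulk1, Atg13, Becn1, Atg14, Atg7, Atg3, Atg12, Atg5, Atg16l1 and Atg4b, 10 of the 18193 genes that the platform annotation names through probe sets with a single symbol. They were chosen by symbol, with earlier results of these data known, and 28 of the 45037 non-control probe sets on the array belong to them. Each gene had between 1 and 5 probe sets, and 18 of the 28 passed the filter on low values described with the first results. Each of the 10 genes kept at least 1 probe set.

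The study measured RNA stored in full-size mouse oocytes of the germinal vesicle (GV) stage, in which meiosis is arrested with the nucleus still intact. The 3 XY arrays came from XY females of B6.Y(TIR), which carry a Y chromosome of Tirano origin on a C57BL/6 background and develop ovaries, and the 3 XX arrays came from their XX littermates. All females were 25 to 29 days old and had received 5 IU of equine chorionic gonadotropin 45 to 47 hours before collection, and the RNA of 10 oocytes of 1 female, freed of cumulus cells by pipetting, went onto each Affymetrix array. XY oocytes differ from XX oocytes both in having a Y and in having a single X, and these cannot be told apart in these 6 arrays.

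Autophagy encloses cytoplasm in a double membrane, the autophagosome, and delivers it to the lysosome. The ULK1 kinase complex starts the process, a phosphatidylinositol 3-kinase complex with BECN1 marks the membrane, and a pair of ubiquitin-like conjugation reactions then attach proteins of the Atg8 family to it. In the mouse, autophagy is switched on soon after fertilization, and Atg5 stored in the oocyte is needed by embryos whose sperm also lacks it. The comparison of XY with XX oocytes addressed which stored transcripts differ between them, and here whether those of the core autophagy machinery do.

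The oocyte label was checked against its markers. Of 12 oocyte markers listed, 11 were annotated and all 11 passed the filter, with a summed normalized intensity of 73474 to 77016 in XY arrays and 81987 to 88472 in XX arrays. Of these, Bmp15 (-1.34, adjusted p = 0.0101), a growth factor of the oocyte, and Mos (-0.85, 0.0272), a kinase of meiosis, fell. Granulosa and cumulus markers summed to 1451 to 1570 in XY and 1261 to 1561 in XX, which overlap, and immune markers to 433 to 489 in XY and 210 to 305 in XX. Sums of different lists come from different probe sets and are not compared with each other. Arrays correlated at 0.980 to 0.982 within XY, at 0.967 to 0.983 within XX and at 0.940 to 0.962 between the groups. XX 1 stood apart from the other XX arrays: its 5' control of Actb read 45.9, against 184 in XX 2 and 188 in XX 3, and lay near the 54.7 to 62.7 of the XY arrays. The 3' over 5' signal ratio of Actb (log2), which rises as RNA is shortened, was 5.57 ± 0.35 in XY and 4.46 ± 0.93 in XX (SD, n = 3 each), a difference of 1.10 with an exact two-sided permutation p of 0.2, where 3 against 3 cannot go below 0.1. The same ratio of Gapdh was 4.22 ± 0.18 in XY and 3.59 ± 0.59 in XX, a difference of 0.64 (p of 0.2 in that permutation test).

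Of the 10 core autophagy genes, 1 passed the test as higher in XY oocytes, Atg13, 0 passed as lower and 9 did not pass. Over all 12442 genes tested, 13.2% passed in either direction, 7.86% higher and 5.34% lower, so 1 of 10 is near the background. The split over all genes turned with the scaling, with 978 higher and 665 lower here against 482 higher and 1622 lower under median scaling. With 1 array left out, the share that passed ran from 3.92% without XY 2 to 27.4% without XX 1. With the Actb ratio in the model it was 1.9%. The test was limma on log2(quantile-normalized intensity + 9) with Benjamini-Hochberg adjustment over all genes at an adjusted p of 0.05. A probe set was kept if 3 or more arrays read it no lower than their own median, and the brightest probe set stood for its gene. Log2 changes are XY minus XX on that scale, which understates changes of dim probe sets. Levels are not compared between genes, since each probe set has its own brightness. As in any pooled sample, RNA per oocyte and the number of oocytes contributing cannot be told apart.

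The changes of the 10 genes ran from -0.53 to 0.59, with 4 above 0, 6 below 0 and a median of -0.10, beside a median of 0.07 over all genes. At an unadjusted p under 0.05 there were 4 of the 10, against 32.2% of all genes. The XY and XX values did not overlap for 6 of the 10, 3 higher and 3 lower in XY, as held for 38.8% of all genes (22.6% higher and 16.2% lower). In the deposited intensities, before normalization, only Atg16l1 of the 10 had groups that did not overlap, where 25.7% of all genes had such groups and 12.8% were lower in XY.

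**Figure D1:**
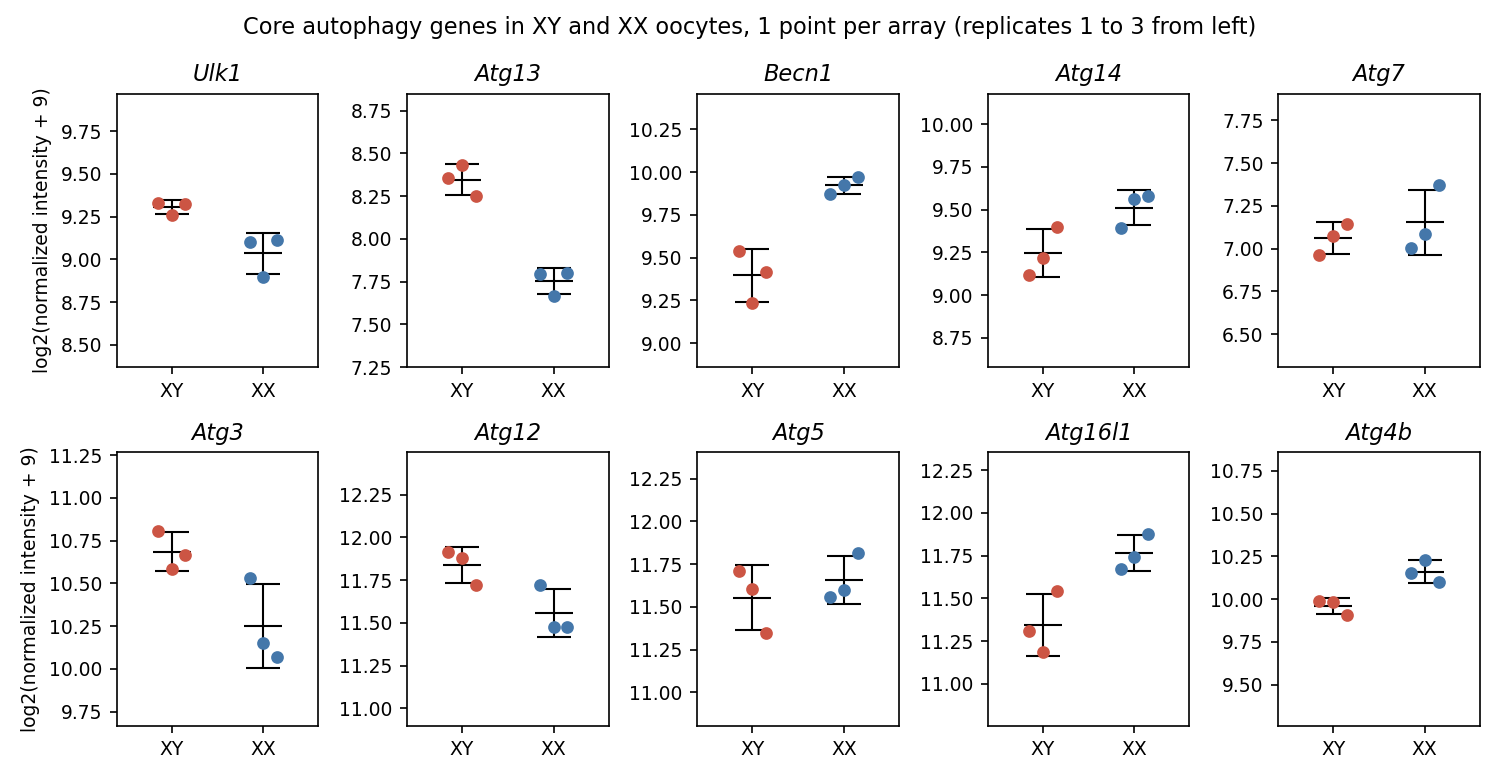
Normalized log2 intensity of the brightest probe set of each core autophagy gene, with 1 point per array, XY left and XX right, and the mean with its SD as a bar. Every panel spans the same range of log2 units. Atg13 shows the widest gap upward and Becn1 the widest gap downward, at log2 changes of 0.59 and -0.53, and Atg5, Atg7, Atg12 and Atg14 overlap.

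Promoter sequences are shown for 4 of the genes because transcription factors that act on autophagy genes were among the transcripts lower in XY oocytes, as described further on. RefSeq's table for GRCm38.p6 held a promoter window, 250 bases before to 50 after the start, for 7 of the 10 genes. The windows were searched on both strands for CACGTG, an E-box bound by TFE3 and TFEB among other factors, for its longer form TCACGTGA, which contains it, and for TGTTTAC, a forkhead site bound by FOXO factors. Of these windows, 6 lie at most 39 bases inside the first base of their gene, and that of Atg7 lies 27969 bases inside it, at another annotated start. CACGTG was present in 3 of the 6 (Atg3, Atg5 and Atg14) and in the internal window of Atg7, so in 4 of all 7. It was present in 7.15% of 32851 windows of the same length. TCACGTGA was present in the window of Atg3 alone, against 0.974%. The shares over all windows had no limit on distance from the gene start and no matching for base composition, and enrichment was not tested. TGTTTAC was present in 0 of the 7 windows and in 3.65% of all windows. A match describes the letters of the window and not binding.

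The windows of Atg13, the gene that passed the test, and of Atg3, Atg5 and Atg14, which hold the E-box near the start of their genes, lie at chr2:91710543-91710842 on the minus strand, at chr16:45158579-45158878 on the plus strand, at chr10:44268089-44268388 on the plus strand and at chr14:47568385-47568684 on the minus strand. They are printed 5' to 3' with CACGTG in capitals.
Atg13: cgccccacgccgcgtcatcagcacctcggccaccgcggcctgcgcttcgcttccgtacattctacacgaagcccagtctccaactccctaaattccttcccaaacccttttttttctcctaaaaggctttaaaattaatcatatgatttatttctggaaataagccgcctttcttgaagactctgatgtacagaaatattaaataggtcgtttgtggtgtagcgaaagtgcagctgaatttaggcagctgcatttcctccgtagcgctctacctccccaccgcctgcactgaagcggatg
Atg3: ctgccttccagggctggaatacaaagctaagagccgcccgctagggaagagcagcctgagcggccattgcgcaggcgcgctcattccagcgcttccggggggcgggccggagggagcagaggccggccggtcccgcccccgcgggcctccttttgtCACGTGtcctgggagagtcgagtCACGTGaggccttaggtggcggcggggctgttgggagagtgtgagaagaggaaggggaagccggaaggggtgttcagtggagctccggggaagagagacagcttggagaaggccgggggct
Atg5: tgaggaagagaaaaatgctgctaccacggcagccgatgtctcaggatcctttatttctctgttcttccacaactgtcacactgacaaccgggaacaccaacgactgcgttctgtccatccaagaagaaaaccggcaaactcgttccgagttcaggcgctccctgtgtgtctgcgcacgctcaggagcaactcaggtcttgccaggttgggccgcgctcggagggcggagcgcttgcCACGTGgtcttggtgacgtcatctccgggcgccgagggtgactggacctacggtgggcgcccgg
Atg14: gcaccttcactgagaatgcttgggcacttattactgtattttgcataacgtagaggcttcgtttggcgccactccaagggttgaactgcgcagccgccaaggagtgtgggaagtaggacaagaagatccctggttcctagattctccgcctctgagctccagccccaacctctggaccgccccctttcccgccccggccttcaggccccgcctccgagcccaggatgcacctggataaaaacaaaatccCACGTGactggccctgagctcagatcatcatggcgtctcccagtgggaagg
Atg13 shows no capitals. The E-box begins 94 and 71 bases before the start in Atg3, 14 bases before it in Atg5 and 1 base before it in Atg14.

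Of the kinase complex, Atg13 rose in XY oocytes and Ulk1 did not pass. Atg13, the subunit that binds ULK1 and joins it to the rest of the complex (chromosome 2, 91674612 to 91710597 in GRCm38.p6), had normalized log2 intensities of 8.36, 8.43 and 8.25 in XY arrays, against 7.79, 7.67 and 7.80 in XX arrays. All 3 XY arrays lay above all 3 XX arrays. The log2 change was 0.59 ± 0.14 (SE), 1.51-fold, with limma's adjusted p = 0.0365. The deposited intensities of that probe set, 340, 262 and 250 in XY and 172, 220 and 280 in XX, overlapped, and with the deposited values as such the change was 0.34 (adjusted p = 0.495), with median scaling 0.18 (0.628). The call was also lost without XY 1 (0.103), XY 2 (0.126), XY 3 (0.0877), XX 2 (0.10) or XX 3 (0.0808), with no filter (0.0778) or with the Actb ratio in the model (0.151, at a change of 0.57), and it held without XX 1 (0.0231). With replicate number as a block it was lost too (0.102).

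Atg13 was read by 3 probe sets, of which only 1423794_at passed the filter. The dim 1458666_at went the other way, with deposited intensities of 13.3, 12.9 and 14.0 in XY and 27.2, 32.4 and 17.7 in XX, and 1423793_at read 6.57 to 14.7 in XY and 4.93 to 17.0 in XX. The dim 1458666_at reached the median of its array on 2 arrays and 1423793_at on 0.

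Ulk1, the kinase itself (chromosome 5), had normalized log2 intensities of 9.33, 9.26 and 9.32 in XY, against 9.10, 8.90 and 9.11 in XX. The groups did not overlap, but the change of 0.27 ± 0.14 did not pass (adjusted p = 0.231), and its 95% interval ran from -0.06 to 0.60. On the deposited values it was -0.045, and under median scaling -0.21. Its other probe set, 1416504_at, did not pass the filter and read 48.2 in XX 3 and 3.07 to 8.11 on the other 5 arrays.

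Of the phosphatidylinositol 3-kinase complex, neither Becn1 nor Atg14 passed. Becn1, the beclin 1 scaffold of the complex (chromosome 11, 101288258 to 101302286), had normalized log2 intensities of 9.54, 9.23 and 9.41 in XY, against 9.87, 9.93 and 9.97 in XX. Each XY array lay under each XX array. The log2 change of -0.53 ± 0.15 (95% interval -0.87 to -0.18) missed the threshold, at limma's adjusted p = 0.0581. It passed in 6 of 18 alternatives, among them without XX 1 (-0.55, adjusted p = 0.0394) and with median scaling (-1.02, 0.0258), where the median over all genes was -0.27.

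Becn1 had 5 probe sets, 3 of them kept, and these did not move alike. In the fit over all probe sets without the filter, 1460320_at changed by -0.55 ± 0.19, close to the brightest, 1455880_s_at, whereas 1437006_x_at changed by 0.80 ± 0.49 (adjusted p from 0.188 to 0.441 for the 3). The last read 92.6, 168 and 111 in XY and 85.6, 115 and 30.1 in XX. The suffix _x_at marks probe sets with probes that may bind other transcripts. It is also carried by 1435219_x_at of Becn1, which did not pass the filter and changed by -1.35. Whether such binding took place was not tested for any of them. As the mean of its 3 kept probe sets Becn1 changed by -0.09 (adjusted p = 0.755).

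Atg14, which directs BECN1 and its kinase to sites of autophagosome formation (chromosome 14), had normalized log2 intensities of 9.12, 9.22 and 9.40 in XY, against 9.39, 9.56 and 9.58 in XX. XY 3 lay just above XX 1, and the change of -0.27 ± 0.15 did not pass (adjusted p = 0.263). Atg14 had a single probe set.

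The enzymes of the conjugation reactions showed no call. Atg7, the E1-like enzyme that activates both ATG12 and the Atg8 proteins (chromosome 6), had normalized log2 intensities of 6.96, 7.08 and 7.15 in XY, against 7.0, 7.09 and 7.37 in XX. The groups overlapped, with a change of -0.09 ± 0.16 and a 95% interval of -0.47 to 0.28 (adjusted p = 0.721). Of its 4 probe sets, 3 did not pass the filter.

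Atg3, the E2-like enzyme that transfers Atg8 proteins to lipid (chromosome 16), had normalized log2 intensities of 10.81, 10.58 and 10.66 in XY, against 10.53, 10.15 and 10.07 in XX. XX 1 lay nearer to the XY arrays than to XX 2 and XX 3, as it did on the Actb 5' control, and whether RNA quality has a part in this was not tested. The change was 0.44 ± 0.18 (adjusted p = 0.137). It was 0.58 without XX 1, where it passed (adjusted p = 0.0286), 0.14 when the Actb ratio was a covariate (0.660), 0.07 on the deposited values and -0.09 under median scaling. Its other kept probe set, 1418179_at, changed by 0.06 ± 0.38 with overlapping groups, and averaged over both Atg3 changed by 0.25 (adjusted p = 0.469).

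Atg12, the ubiquitin-like protein that is joined to ATG5 (chromosome 18), had normalized log2 intensities of 11.92, 11.88 and 11.72 in XY, against 11.72, 11.48 and 11.48 in XX. Its 3 kept probe sets changed by 0.28, 0.38 and 0.65, the last of them 1439457_x_at, with overlapping groups in each. All lay on one side and none passed the threshold. The change of the brightest, 0.28 ± 0.15 (adjusted p = 0.241), was -0.09 on the deposited values and -0.25 under median scaling.

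Atg16l1, which holds the ATG12-ATG5 conjugate at the membrane (chromosome 1), had normalized log2 intensities of 11.31, 11.19 and 11.54 in XY, against 11.67, 11.74 and 11.88 in XX. Every XY array lay under every XX array, also in the deposited intensities of 2642, 1738 and 2381 in XY and 2825, 4016 and 4993 in XX. The change of -0.42 ± 0.16 did not pass (adjusted p = 0.119). It passed with median scaling (-0.95, adjusted p = 0.0298) and with an intensity trend in the variance model (0.0454). Its other probe set, 1441852_x_at, did not pass the filter and had a value of 0.54 ± 0.32 with overlapping groups.

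Atg4b, the protease that trims Atg8 proteins before they are conjugated and frees them afterwards (chromosome 1), had normalized log2 intensities of 9.99, 9.98 and 9.91 in XY, against 10.15, 10.23 and 10.10 in XX. The groups did not overlap, yet the change was only -0.20 ± 0.14 (adjusted p = 0.341). Its other kept probe set changed by -0.02 ± 0.19, with overlapping groups.

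Atg5, the acceptor of ATG12 (chromosome 10, 44268322 to 44364299), showed the widest spread among probe sets that kept one sign. The brightest, 1415684_at, had normalized log2 intensities of 11.71, 11.60 and 11.35 in XY, against 11.56, 11.60 and 11.82 in XX, a change of -0.10 ± 0.16 with overlapping groups (adjusted p = 0.696). Without the filter, 1418236_s_at changed by -0.41 ± 0.23 and 1418235_at by -1.0 ± 0.37 (adjusted p = 0.402 and 0.216).

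The deposited intensities of 1418235_at were 627, 359 and 448 in XY, against 476, 1725 and 1995 in XX. XX 2 and XX 3 were high and XX 1 lay among the XY arrays, the same split of arrays as on the 5' control of Actb, which read 55.7, 62.7 and 54.7 in XY, against 45.9, 184 and 188 in XX. With the Actb ratio as a covariate the change of 1418235_at was -0.30 (adjusted p = 0.793), and without XX 1 it was -1.43 (0.0375). The part of RNA length in this probe set's values was not tested further.

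**Figure D2:**
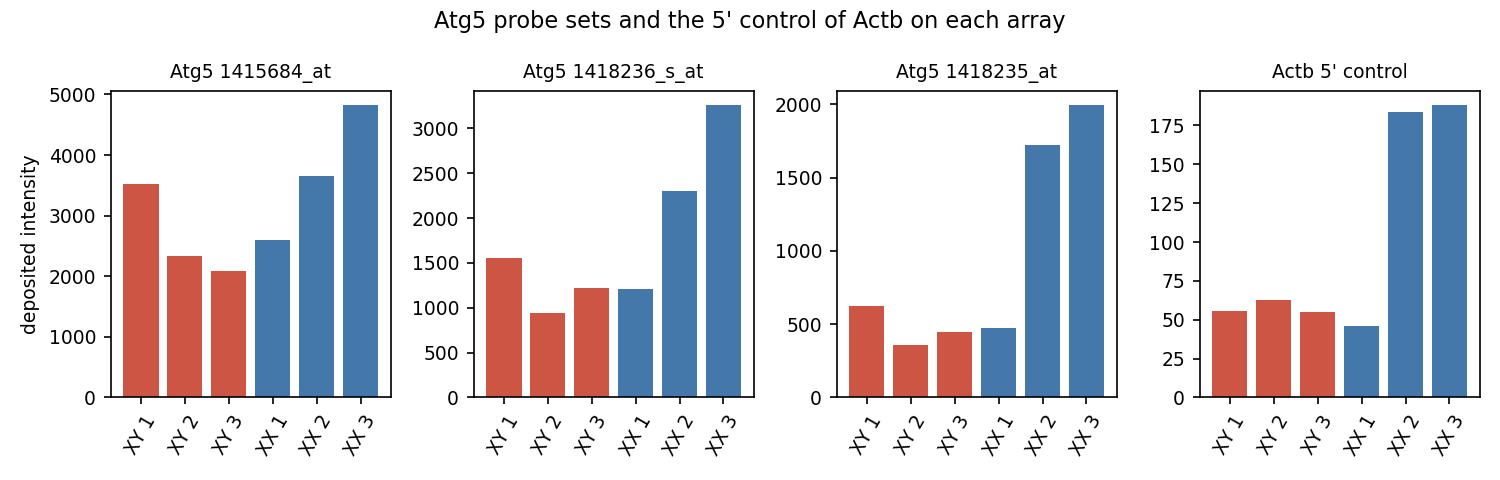
Deposited intensity, from 0, of the 3 Atg5 probe sets and of the 5' control of Actb on each of the 6 arrays, XY arrays first. XX 2 and XX 3 read 1725 and 1995 on 1418235_at and 184 and 188 on the control, far above the other 4 arrays on both, whereas on the brightest Atg5 probe set XY 1, at 3518, read close to XX 2, at 3651.

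Across all 28 probe sets, tested with no filter among 45037, 0 passed limma's adjusted p of 0.05, where 1.37% of all probe sets did, and the lowest adjusted p was 0.141, for Atg13. At an unadjusted p under 0.05 there were 6 of the 28, against 18.6% of all probe sets. The groups did not overlap for 8 of the 28, 3 higher and 5 lower in XY, against 25.2% of all probe sets. Among the 5 genes with several kept probe sets, the kept probe sets shared a sign in Atg3, Atg4b, Atg5 and Atg12, but not in Becn1.

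**Figure D3:**
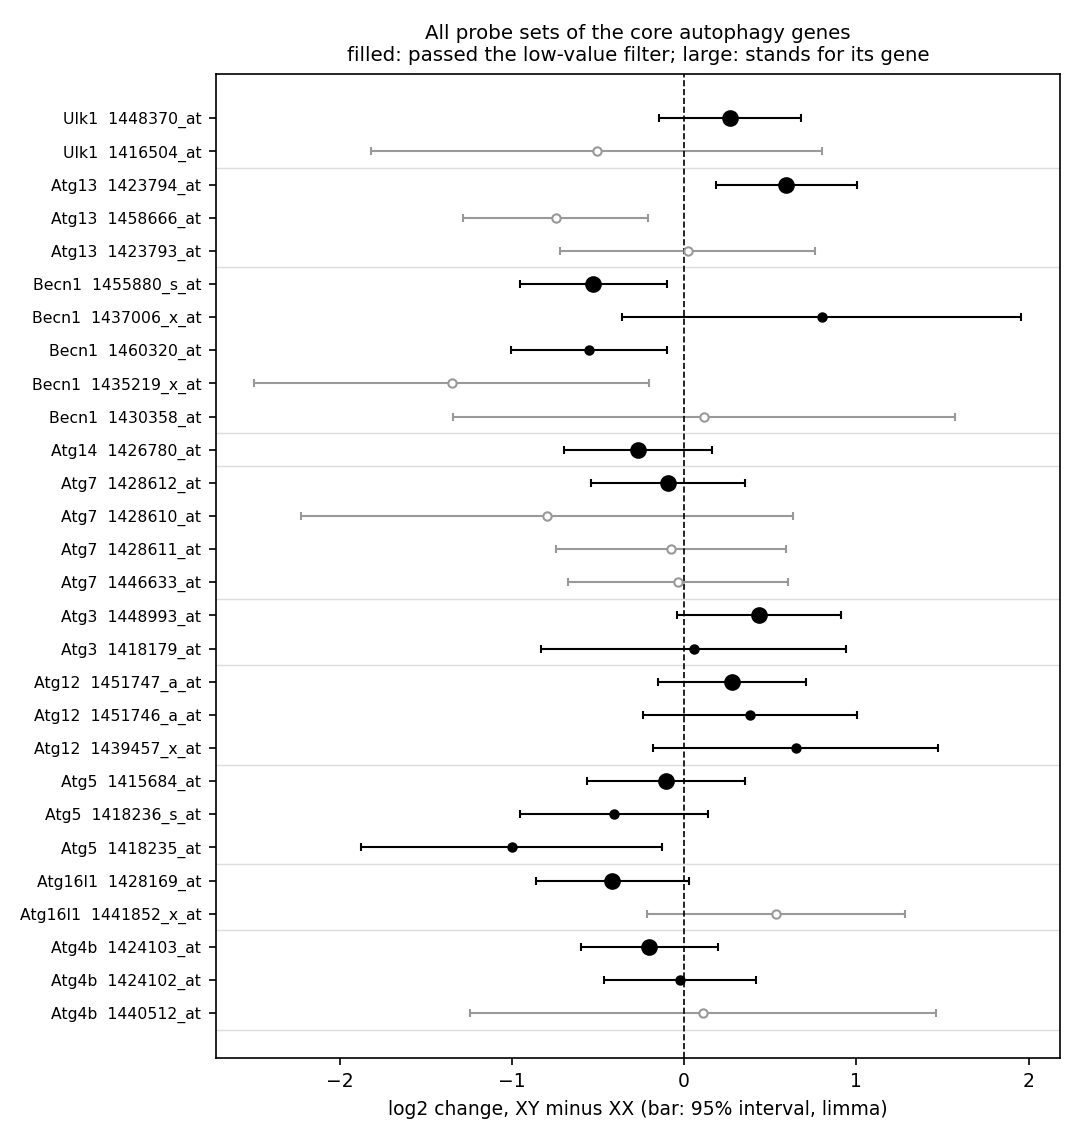
Log2 change, XY minus XX, of each of the 28 probe sets of the core autophagy genes with its 95% interval from limma, fitted over all probe sets without a filter. Filled points passed the filter on low values and large points stand for their gene. Most intervals include 0, and the Becn1 probe sets lie on both sides of it, from -1.35 to 0.80.

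Genes whose profile lay nearest to that of Atg13, the member with the smallest p, were found by the Euclidean distance between log2 profiles centred on their own means, over 6 arrays and 12441 other genes. They were the histone chaperone gene Asf1b, at a distance of 0.0967 and with a log2 change of 0.63, the gene Pdcd10 (0.56) and Tpp2 (0.55), which encodes a tripeptidyl peptidase. The profiles share the split into 2 groups of arrays, so this is a description of likeness only.

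Other genes of the pathway were taken from 5 lists by role, and 77 of their 84 genes were tested. Of these, 4 rose, 4 fell and 69 did not pass, against 7.86% and 5.34% of all genes. The split was 2 higher and 10 lower under median scaling, 1 and 3 on the deposited values, and 6 and 3 under trimmed mean scaling. The median log2 change after quantile normalization was 0.10 beside 0.07 over all genes. Atg9b, Atg4d, Prkaa1 and Tfeb had no probe set past the filter, and the rest were not analysed here. Those that rose were Wdr45b, Atg10, Sqstm1 and Ctsl, and those that fell were Atg2b, Lamp2, Tfe3 and Foxo3.

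**Figure D4:**
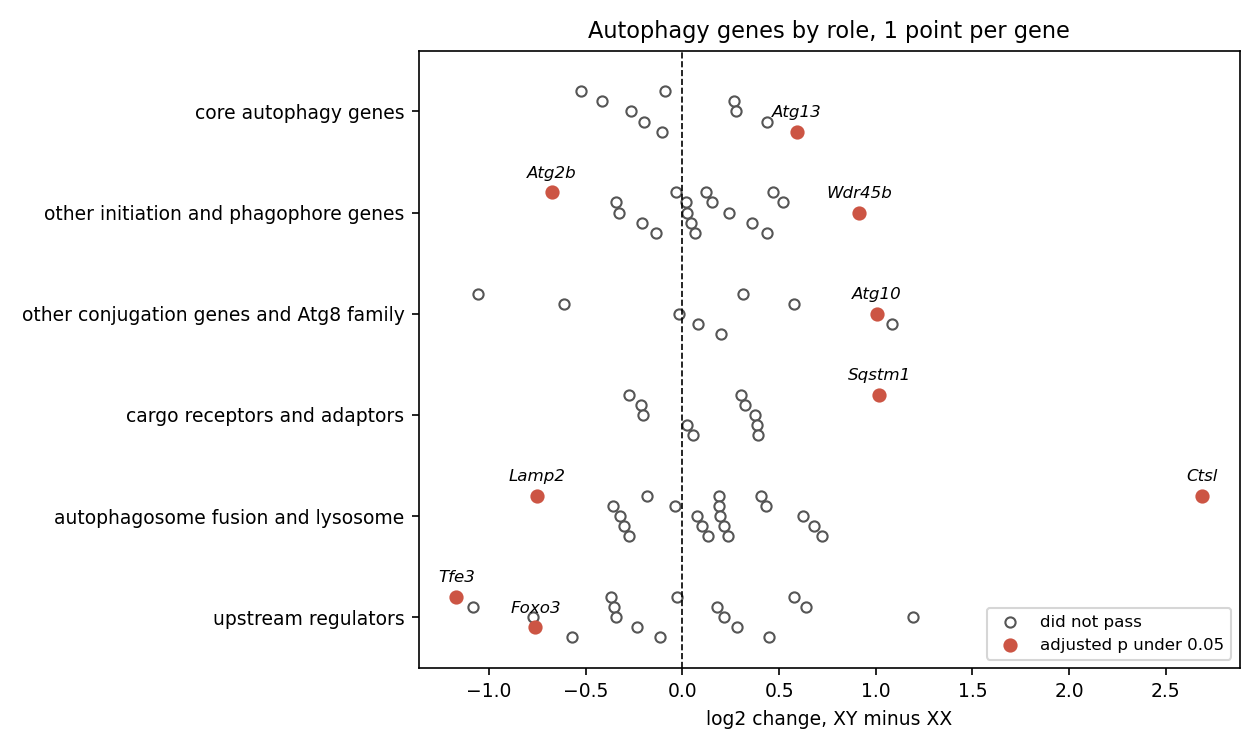
Log2 change, XY minus XX, of the 10 core autophagy genes and 77 other autophagy genes by role, with 1 point per gene. Filled and named points passed limma's adjusted p of 0.05. The filled points lie on both sides of 0, from -1.17 for Tfe3 to 2.69 for Ctsl.

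Among 18 other initiation and phagophore genes, 1 rose and 1 fell (median 0.05). Wdr45b, a phosphoinositide-binding propeller protein of the WIPI family, had normalized log2 intensities of 6.82, 6.82 and 6.81 in XY, against 5.96, 5.80 and 5.95 in XX, a change of 0.92 ± 0.14 (limma, adjusted p = 0.00996). The call was kept without each array in turn and lost with the deposited values (0.91, adjusted p = 0.0523) and with the Actb ratio in the model (0.0662). Atg2b, a lipid transfer protein, fell by 0.68 ± 0.17 (adjusted p = 0.0417). Its other 2 kept probe sets changed by 0.34 and 0.52, and averaged over its probe sets it changed by 0.06 (adjusted p = 0.866). The call for Atg2b was also lost without XY 1, XY 2, XY 3, XX 2 or XX 3 (adjusted p from 0.0953 to 0.123), on the deposited values (0.0920), under trimmed mean scaling (0.0570), with no filter (0.0835) and with the Actb covariate (-0.46, 0.238). With replicate number as a block it was lost too (0.0975). Vmp1 (0.47, adjusted p = 0.0715) and Wipi1 (0.52, 0.166) did not pass, and Pik3c3, the catalytic subunit that works with BECN1, changed by 0.15 (0.636).

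Among 9 other conjugation genes and members of the Atg8 family, 1 rose and 0 fell (median 0.20). Atg10, the E2-like enzyme that joins ATG12 to ATG5, had normalized log2 intensities of 8.37, 8.75 and 8.59 in XY, against 7.88, 7.69 and 7.11 in XX, a change of 1.0 ± 0.23 (limma, adjusted p = 0.0334). The call was lost without XY 1, XY 2, XY 3, XX 2 or XX 3 (adjusted p from 0.0635 to 0.106), with the deposited values (0.78, 0.0931), with median scaling (0.62, 0.0951) and with the Actb covariate (0.212). The call was also lost with no filter (0.0657) and with replicate number as a block (0.07). Gabarapl1 (1.08, adjusted p = 0.0747), Atg4c (-0.61, 0.0922) and Map1lc3a (0.58, 0.193), an LC3 gene, did not pass. XX 1 lay with the XY arrays for Map1lc3a, at 11.61, 11.79 and 11.86 in XY and 11.81, 10.79 and 10.93 in XX.

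Of 11 cargo receptors and adaptors, 1 rose and 0 fell (median 0.30). Sqstm1, the receptor p62 that links ubiquitinated cargo to Atg8 proteins and is itself degraded by autophagy as a protein, had normalized log2 intensities of 8.10, 8.0 and 8.03 in XY, against 6.76, 7.04 and 7.28 in XX. All XY arrays lay above all XX arrays, with a change of 1.02 ± 0.17, or 2.02-fold (limma, adjusted p = 0.0144). The call was lost without XY 1, XY 2 or XY 3 (adjusted p from 0.0504 to 0.0520), with the deposited values (0.82, 0.123), with median scaling (0.67, 0.109) and with the Actb covariate (1.23, 0.0520). Bnip3 (0.37, adjusted p = 0.125), Tollip (0.39, 0.172) and Phb2 (0.33, 0.181) did not pass.

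Among 21 genes of autophagosome fusion and the lysosome, 1 rose and 1 fell (median 0.19). Ctsl, the lysosomal cysteine protease cathepsin L (chromosome 13), had normalized log2 intensities of 8.59, 8.56 and 9.12 in XY, against 6.71, 5.78 and 5.71 in XX. All XY values lay above all XX values, and the change of 2.69 ± 0.30 corresponds to 6.45-fold (limma, adjusted p = 0.00502). It passed in all 18 alternatives run, with changes of 2.10 to 3.03. Ctsb (0.10, adjusted p = 0.697) and Ctsd (-0.27, 0.392), also lysosomal proteases, did not pass. Lamp2, an X-linked gene for a lysosomal membrane protein, fell by 0.75 ± 0.18 (adjusted p = 0.0365), and its other 2 kept probe sets had values of -1.06 and -1.22. Its call was lost without XY 1, XY 2, XY 3, XX 2 or XX 3 (adjusted p from 0.0611 to 0.102) and with the Actb covariate (0.214). The call was also lost with no filter (0.0734) and with replicate number as a block (0.0692). Mcoln1, a lysosomal cation channel gene (0.68, adjusted p = 0.0609), and Stx17, the autophagosomal syntaxin gene (0.72, 0.0737), did not pass.

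Immune markers were among the genes that rose with Ctsl and Sqstm1. Of 8 immune markers, 7 were annotated and 4 passed the filter, of which Csf1r (1.4 ± 0.24) and Cd68 (0.59 ± 0.14) rose and 0 fell (limma, adjusted p = 0.0146 and 0.0392). Ptprc, Cd3e and Itgam did not pass the filter. Theca and stroma markers summed to 310 to 429 in XY and 157 to 194 in XX. Of the 8, 3 passed the filter, Dcn (1.85 ± 0.49), Star (0.76) and Col1a2 (0.08), and 0 passed the test. Dcn only just missed it, at limma's adjusted p = 0.05 as rounded. Blood and endothelium markers summed to 260 to 355 in XY and 207 to 368 in XX. Sertoli markers summed to 197 to 219 in XY and 165 to 215 in XX. Both sums overlapped between the groups, and 0 markers of either list passed the test. Of 8 kept granulosa markers, Inha rose by 1.58 ± 0.41 (adjusted p = 0.0475) and 7 did not pass, among them Kitl (-0.63, adjusted p = 0.0715). The part of such cells in the values of Ctsl and Sqstm1 was not tested.

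Of 18 upstream regulators, 0 rose and 2 fell (median -0.18). Tfe3, an X-linked relative of TFEB that binds the E-box shown above, had normalized log2 intensities of 8.71, 8.73 and 8.58 in XY, against 9.57, 9.73 and 10.23 in XX, a change of -1.17 ± 0.20 (limma, adjusted p = 0.0146). The call was lost without XY 2 or XY 3 (adjusted p of 0.0504 and 0.0526) and with the Actb covariate (-0.93, 0.106). Foxo3, a forkhead factor of the oocyte and its follicle on chromosome 10, had normalized log2 intensities of 9.74, 9.87 and 9.75 in XY, against 10.47, 10.75 and 10.41 in XX, a change of -0.76 ± 0.16 (adjusted p = 0.0239). Its other kept probe sets had changes of -0.24 and -0.82, and the call was lost without XY 1, XY 2, XY 3 or XX 2 (adjusted p from 0.0683 to 0.0806) and with the Actb covariate (0.137). The call was also lost with no filter (0.0536) and with replicate number as a block (0.0643). The AMPK subunit gene Prkaa2 (0.58, adjusted p = 0.0756), the AMPK-activating kinase gene Stk11 (-0.57, 0.0842) and Mtor (0.18, 0.442) did not pass.

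Tfe3 and Lamp2 are on the X chromosome, of which XY oocytes carry a single copy, and 95 of 375 X-linked genes tested (25.3%) fell and 16 rose, where 5.34% of all genes fell. The other X-linked autophagy genes, Wdr45 (0.02), Atg4a (0.08) and Fundc1 (-0.28), did not pass. None of the 10 core genes is X-linked.

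The direction of small changes depended on how arrays were scaled, since the median log2 change over all genes was 0.07 after quantile normalization, -0.12 with the deposited values, -0.27 with median scaling and 0.18 with trimmed mean scaling. Relative to these medians, the median of the 10 core genes lay at -0.17, -0.23, -0.23 and -0.22. After quantile normalization this offset was -0.03 with the Actb covariate, -0.07 without XX 3 and -0.24 without XX 1. It was not tested. Relative to the median over all genes, Atg13, Atg3, Atg12 and Ulk1 were higher and Becn1, Atg16l1, Atg14, Atg4b, Atg5 and Atg7 lower under all 4 scalings. Some margins were small, as for Atg12 under median scaling, at -0.25 beside -0.27. Median and trimmed mean scaling multiply each array by a single factor, which moves most genes alike. The agreement over scalings was thus largely fixed in advance and lends no further support.

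**Figure D5:**
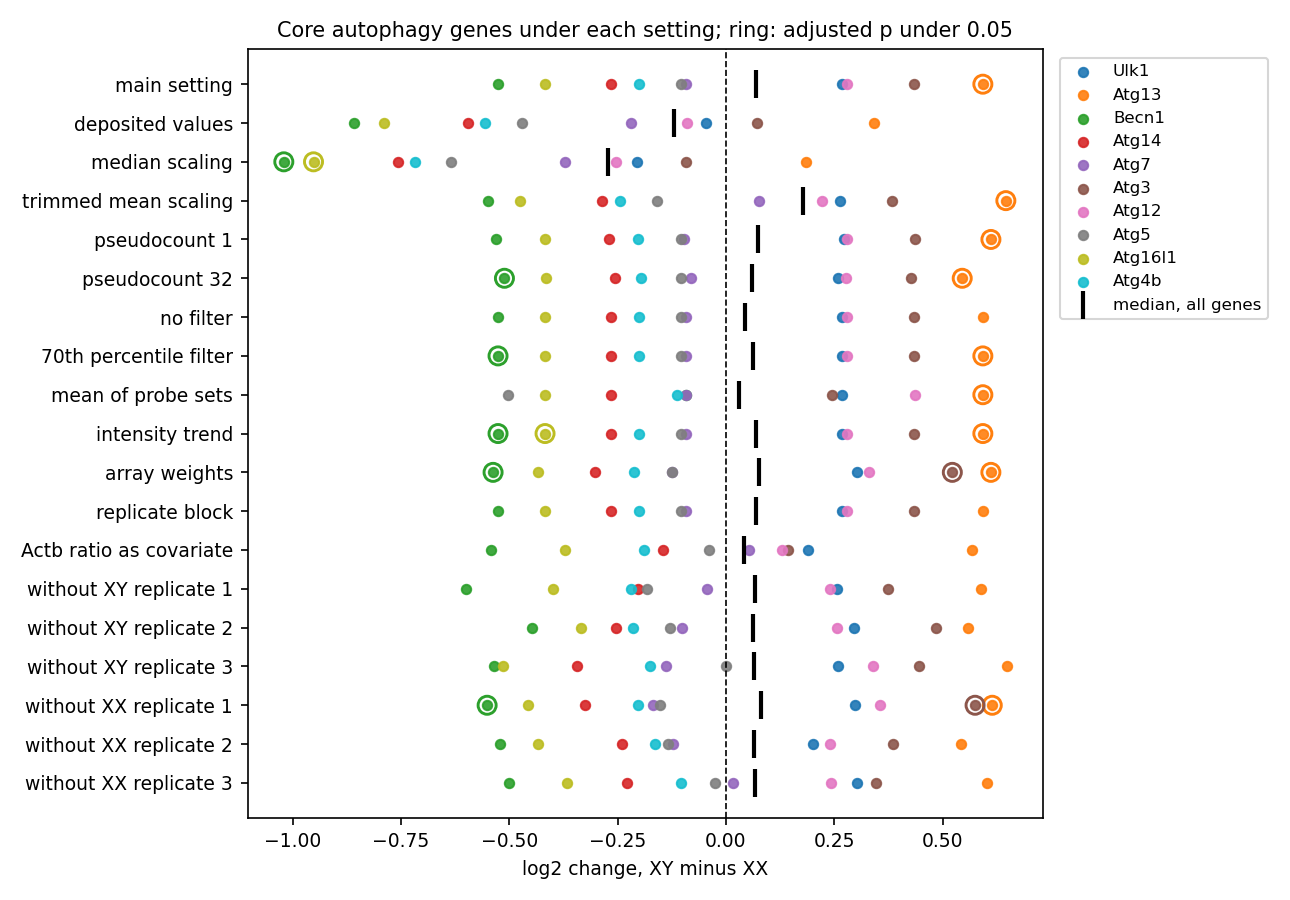
Log2 change, XY minus XX, of the 10 core autophagy genes under each of the 19 settings, with the median over all genes as a black tick and a ring where limma's adjusted p was under 0.05. Atg13 has the highest value under each setting plotted, and the whole set shifts with the scaling, from a median of -0.04 with trimmed mean scaling to -0.50 with median scaling.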

How the data were processed

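The authors deposited 1 linear intensity per probe set and array, made with MAS5 per the submitters' processing notes. For MAS5, version and scaling target: not given in the sources used here. Array medians of the deposited intensities ran from 29.2 to 31.4 in XY and from 24.5 to 28.8 in XX, and arrays were quantile-normalized.

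Of 45037 non-control probe sets, 34945 had 1 gene symbol, and current symbols came from GRCm38.p6 by gene ID. Log2 values used a pseudocount of 9, the 25th percentile of the deposited intensities. The filter left 22997 probe sets and 12442 genes. Differences were tested in R 4.3.3 with limma 3.58.1 (lmFit, eBayes, Benjamini-Hochberg). The code was run on simulated data with independent noise of the same spread on every array. Those data hold no array that stands apart as XX 1 did, so the run does not show how the test behaves here. The 3 arrays per group limit precision.

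Named genes were all members with every probe set, and of 5 other lists those past the threshold and up to 4 with the smallest p, plus the 3 genes nearest to the member with the smallest p. Pik3c3, Ctsb, Ctsd, Mtor and the X-linked Wdr45, Atg4a and Fundc1 were added after their values were seen. Members and lists were chosen with earlier results of these data known. Promoter windows are from RefSeq. Alternatives changed the filter, the pseudocount, the scaling, the summary of probe sets, the variance model, array weights, the replicate block, the Actb covariate and the arrays used.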

Additional observations from a re-analysis of the deposited data

How the results depend on the processing

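The number of core autophagy genes past the threshold was 1 after quantile normalization, trimmed mean scaling, a pseudocount of 1 or the mean of probe sets. Of all genes, 13.2%, 16.1%, 11.1% and 13.5% passed in these settings, in that order. The number was 0 with the deposited values, no filter, the replicate block or the Actb covariate (8.05%, 5.02%, 5.46% and 1.9% of genes). It was 2 with median scaling, a pseudocount of 32 or the 70th percentile filter (16.9%, 17.5% and 25.8% of genes). It was 3 with an intensity trend or array weights (19.6% and 26.2%). Leaving out 1 array gave 0 to 3, with 3 without XX 1, where 27.4% of all genes passed, and 0 without any other, where 3.92% to 5.47% did. The median change of the 10 genes was -0.35 with the deposited values, -0.50 with median scaling, -0.041 with trimmed mean scaling and 0.0072 with the Actb covariate, and -0.16 to -0.0043 with 1 array left out (lowest without XX 1, highest without XX 3). The number of other autophagy genes past the threshold, 8, became 4 with the deposited values or the replicate block, 5 with no filter, 1 with the Actb covariate, 15 with array weights, and 2 to 14 with 1 array left out: 3 without XY 1, 2 without XY 2 or XY 3, 14 without XX 1, and 5 without XX 2 or XX 3. The number of member probe sets past the threshold without a filter, 0, was 1 with a pseudocount of 32, an intensity trend or without XX 1. Over all genes 1643 passed, against 1001, 2104, 2174, 913, 2185, 2434, 3264, 679 and 236 with the deposited values, median scaling, a pseudocount of 32, no filter, the 70th percentile filter, an intensity trend, array weights, the replicate block and the Actb covariate, and 472 (without XY 2) to 3307 (without XX 1) with 1 array left out.

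Signs turned for Atg12 (-0.091) and Ulk1 (-0.045) with the deposited values, for Atg3 (-0.092), Atg12 (-0.25) and Ulk1 (-0.21) with median scaling, for Atg7 with trimmed mean scaling (0.076), the Actb covariate (0.054) and without XX 3 (0.016, where leaving out 1 array gave -0.17 to 0.016), for Atg5 without XY 3 (0.00037, range -0.18 to 0.00037) and for Atg2b averaged over its probe sets (0.062); the cause was not tested. No pairing by the shared replicate numbers was seen, as deviations of same-numbered arrays correlated at -0.10, 0.00 and -0.04. These few correlations cannot exclude a pairing, since the deviations within a group are not independent. The block, which took degrees of freedom, left Atg13 at limma's adjusted p of 0.102. The Actb difference of 1.10 ran from 0.80 to 1.64 with 1 array left out. On quantile-normalized values it was 1.41, with an exact permutation p of 0.1, the smallest possible. The 3 arrays per group, and the dimness of the 10 member probe sets under the filter, limit which small changes can be called.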
